A study of Mus musculus with 8 samples.

Results

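Naive-like CD8 T cells of the tumour-bearing mouse liver were selected by the RNA molecules (unique molecular identifiers, UMIs) found in each cell barcode. A member had at least 500 UMIs, at least 300 genes and at most 20% mitochondrial UMIs. It held a UMI of Cd3d, Cd3e or Cd3g (the CD3 chains of the T cell receptor complex), a UMI of Cd8a or Cd8b1 (the CD8 co-receptor) and a UMI of Lef1 or Ccr7. It held none of Cd4, of the effector genes Gzmk, Gzmb and Ccl5, of the B cell gene Cd79a, or of the myeloid genes Lyz2 and C1qa. These values chose 324 of the 21482 kept barcodes. The levels of these genes are therefore a description of the rule.

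Naive CD8 T cells have not yet met their antigen. They circulate between blood and lymph nodes, which they enter with homing receptors such as CCR7 and leave with the sphingosine receptor S1PR1. The transcription factors TCF1 (Tcf7), LEF1, SATB1, BACH2 and FOXP1 and the interleukin 7 receptor are known to keep them quiescent and alive, and on activation they lose these genes and gain granzymes, chemokines and inhibitory receptors. In the liver they are also found in the blood of the sinusoids.

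Single cells were read from livers of male C57BL/6 mice in which plasmids injected into the tail vein at 8 to 10 weeks of age disrupt Trp53 and insert c-Myc in hepatocytes, and which were killed 4 to 5 weeks later. Both groups carried the floxed allele Nr4a1fl/fl: control mice were Ncr1WT, and mice labelled knockout were Ncr1iCre. Ncr1 encodes the activating receptor NKp46 found on NK (natural killer) lymphocytes and type 1 innate lymphocytes, which sets the cells in which the Cre is driven. Each group had 3 droplet mRNA libraries made with 10x 3′ v3.1 chemistry; control 3 pooled 3 mice and knockout 3 pooled 2 mice, told apart by hashtag antibodies, and the labels do not say which animals lie behind the other libraries, so p-values measure the spread between these samples.

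The members fell unevenly over the libraries. Control 1 held 21, control 2 none, control 3 106, knockout 1 79, knockout 2 none and knockout 3 118. Control 2 and knockout 2 are the small libraries, with 549 and 134 kept barcodes and a median of 9.7% and 11.6% mitochondrial UMIs, against 2697 to 10128 barcodes and 2.64% to 4.54% in the other 4. The median member held 3331, 5140, 5887 and 4247 UMIs in control 1, control 3, knockout 1 and knockout 3. No member barcode was shared between libraries, and 41 kept barcodes were. In knockout 3, 4 members with over 4 times the median held 32.8% of the library's member UMIs, and control 3 had 1 such cell. Those 5 cells held hepatocyte marker genes at 2.17% of their UMIs, against 0.133% in the other 319 members. Leaving out such cells in every gate was an alternative, and its values are given beside a number of the results below.

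Within the gate, Lef1 carried the selection. Lef1 had a UMI in 317 of 324 members and Ccr7 in 149, with both in 142. Cd8b1 was found in 294 and Cd8a in 214. Lef1 stood at 1260, 1005, 1258 and 733 CPM (UMIs of the gene per 1000000 UMIs of the members) in control 1, control 3, knockout 1 and knockout 3, and Ccr7 at 71.3, 139, 164.6 and 109 CPM. The members near the edge of the rule were few: 28 had exactly 1 UMI over Lef1 and Ccr7. Pooled over libraries, these 28 held Nkg7 at 568 CPM, against 345 CPM in the 296 members with more. Just outside, 79 of the 736 CD8 T cells that held both Lef1 or Ccr7 and an effector gene had only 1 effector UMI. Their Il7r was 308 CPM and their Gzma 25.8 CPM, while the 657 with 2 or more held Gzma at 1010 CPM. The 68 CD8 T cells with neither kind of gene were shallow, with a median of 2477 UMIs.

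Genes that the rule did not name were described next, in a contrast that the rule itself drew. The members were set beside the effector CD8 T cells of the same libraries, control 1, control 3, knockout 1 and knockout 3. Those effector cells numbered 50, 1011, 80 and 126, and held a UMI of Gzmk, Gzmb or Ccl5 and none of Lef1 or Ccr7. Il7r, the receptor for the survival cytokine interleukin 7, stood at 535, 635, 459 and 293 CPM in members and at 59.6, 19.7, 26.7 and 38.2 CPM in effector cells. Tcf7 stood at 475, 364, 453 and 236 CPM in members and at 106, 38.3, 100.1 and 49.9 CPM in effector cells. Without the 8 very large effector cells of knockout 3 (1021646 UMIs became 519932), effector levels in that library were higher for most genes described here, with Il7r at 75.01 CPM and Tcf7 at 78.9 CPM. For both genes no member value overlapped an effector value, with or without those cells, and knockout 3 had the lowest member level.

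A fit across 6542 genes described the 2 gates (edgeR, library as a block, the 14 gate genes left out). It called 844 genes higher in naive-like cells (12.9% of those tested) and 754 higher in effector cells (11.5%). The rule drew this contrast, since genes that accompany Lef1 or the granzymes differ by construction, so no p-value is given for it and the calls are a description. Without knockout 1 the calls numbered 689 in all and without control 3 986, in place of 1598. Of the 22 genes listed for naive and stem-like T cells, 21 were tested, 20 were called higher in naive-like cells and none lower, with a median log2 difference of 2.69 against -0.01 over all genes. The chromatin organizer Satb1 (3.13 ± 0.20, log2 difference ± SE) and the repressor Bach2 (3.22 ± 0.21) were its 2 genes with the smallest p. Satb1 stood at 713, 695, 817 and 469 CPM in members and at 80.8, 66.5, 120.1 and 81.2 CPM in effector cells.

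The 10 genes with the largest difference toward naive-like cells were Slc28a2b, Gm43698, St8sia1, Tdrp, Lypd6b, Dapl1, Ramp1, Il7r, Rapgef4 and St6gal1. Slc28a2b, a nucleoside transporter gene with a near-identical neighbour whose reads it may share, held 116 UMIs over the 4 libraries' members and 1 in all effector cells. St8sia1, a ganglioside sialyltransferase, stood at 71.3, 100.3, 119.9 and 77.2 CPM in members and at 8.51, 0.91, 1.67 and 1.96 CPM in effector cells. Dapl1, long used as a transcript of naive and stem-like CD8 T cells, stood at 285, 524, 366 and 289 CPM against 25.5, 7.87, 33.4 and 18.6 CPM. In each of these genes the lowest member library lay above the highest effector library, as the plot of leading genes shows. They were picked for a large difference in the same direction in every library, so this follows largely from the choice.

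**Figure D1:**
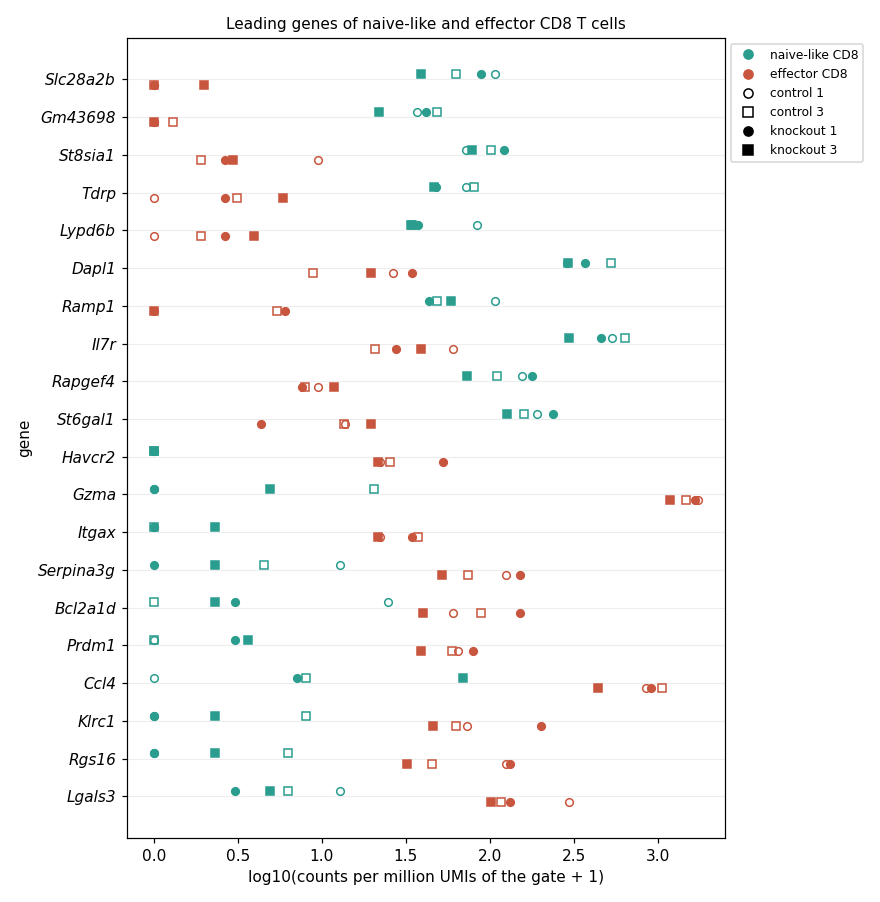
Leading genes of naive-like and effector CD8 T cells, 10 in each direction by size of the difference. The x axis is log10 of CPM plus 1, and each point is 1 library (open for control, filled for knockout). Green naive-like and red effector points do not overlap for any gene shown, which follows largely from how the genes were picked.

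Toward effector cells, the cytotoxic list was the mirror image: of its 24 tested genes, 22 were called higher in effector cells and none in naive-like cells, with a median of -2.50. Gzma, granzyme A, had 0, 11, 0 and 3 UMIs in the members of control 1, control 3, knockout 1 and knockout 3, and 1723, 1468, 1664 and 1181 CPM in effector cells. Havcr2, the inhibitory receptor TIM-3, had no UMI in any member, and stood at 21.3, 24.5, 51.7 and 20.6 CPM in effector cells, at least 16.5-fold higher when members are set at 3 UMIs over the group. The other genes with the largest difference were Itgax, Serpina3g, Bcl2a1d, Prdm1, Ccl4, Klrc1, Rgs16 and Lgals3. Prdm1, the transcription factor BLIMP-1 of effector cells, held 3 UMIs over all members. The checkpoint list had 8 of 12 tested genes higher in effector cells, Pdcd1 and Havcr2 among them. It had 2 higher in naive-like cells, the inhibitory receptor Btla and Slamf6, near the 12.9% over all genes. Slamf6, a receptor of stem-like T cells, stood at 142 ± 23.5 CPM in members (SD, n = 4) and 29.9 ± 18.2 CPM in effector cells.

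Nkg7, a cytotoxic granule gene, was low but not absent in members. It stood at 511, 422, 384 and 276 CPM in members and at 1952, 1683, 1554 and 947 CPM in effector cells. Thinned to 1000 UMIs per cell, 23.8%, 28.3%, 25.3% and 28.0% of members still had a UMI of it, against 0.0%, 2.53%, 0.38% and 0.73% of gated B cells, which should lack it. The share in members lay above that in B cells in all 4 libraries. Those B cells held Cd79a and no UMI of a CD3 gene, Lyz2 or C1qa. Barcodes with CD3 RNA were thus left out of the B cell gate beforehand. How far that lowers the B cell shares was not tested.

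Memory-type genes were also mixed in the members. Ly6c2, a surface protein gene of memory and some naive CD8 T cells, stood at 154.5, 408, 309 and 153 CPM. It had a UMI in 4 of 21, 38 of 106, 34 of 79 and 26 of 118 members, so it was detected in a part of the gate. Thinned, the shares were 14.3%, 15.1%, 17.7% and 10.2%, against 0.41%, 1.22%, 0.75% and 1.47% in gated B cells. Il2rb, the interleukin 2 and 15 receptor chain of memory cells, stood at 35.7, 95.02, 75.2 and 52.4 CPM in members and at 370, 142, 347 and 157 CPM in effector cells, and Cxcr3 at 35.7, 17.6, 36.6 and 7.85 CPM against 102, 90.7 and 103 CPM in the effector cells of control 1, control 3 and knockout 1 and a lower level in knockout 3. Of 15 tested memory and virtual memory genes, 12 were called higher in effector cells and 1, Slamf6, higher in naive-like cells.

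Quiescence genes leaned to the members, 10 of 20 tested higher there and 1, Ctla2a, higher in effector cells, with a median of 0.52. They included Klf2 and Foxo1, which drive homing genes, and Pik3ip1, an inhibitor of phosphoinositide 3-kinase, at 95.1, 95.02, 102 and 69.4 CPM in members and 10.1 ± 4.15 CPM (SD, n = 4) in effector cells. Homing receptors split by type. S1pr1, Gpr183, Itga6 and Ccr9 were among those higher in members, and 8 of the 18 tested, such as Cxcr3, Cxcr6 and the integrin Itgal, were higher in effector cells. S1pr1 stood at 249.6, 109, 181 and 90.3 CPM in members and at 42.5, 28.8, 35.02 and 22.5 CPM in effector cells.

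Receptor and signalling genes were called in both directions. Over all tested genes, 12.9% were higher in members and 11.5% higher in effector cells. Of 25 tested T cell receptor signalling genes, 6 were higher in members, among them the kinase Prkcq and Themis. Another 3 were higher in effector cells, near the share over all genes. Of 29 tested cytokine receptor and STAT genes, 10 were higher in members, such as Il7r, Il6ra, Il4ra and Socs3, and 5 higher in effector cells, such as Il2rb and Il12rb2. Il6ra, the interleukin 6 receptor, stood at 178, 77.4, 116 and 79.9 CPM in members and at 10.5 ± 4.50 CPM (SD, n = 4) in effector cells. The tissue residency list had 7 of 13 tested genes higher in effector cells and 1, Itgae, higher in members, at 107, 49.3, 85.3 and 53.7 CPM against 25.5, 13.3, 11.7 and 5.87 CPM. Of 26 tested MYC target genes, 6 were higher in effector cells and none in members, which became 2 and 3 without the very large cells.

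The interferon list had 9 of 21 tested genes higher in effector cells and none in members; Isg15 stood at 71.3, 52.8, 20.3 and 65.5 CPM in members and at 319, 216, 277 and 147 CPM in effector cells. Cycling markers had 10 of 12 tested genes higher in effector cells, and Mki67 had a UMI in 1 of 21, 7 of 106, 9 of 79 and 13 of 118 members. T cell receptor variable segments were read in few cells. The most frequent Trbv segment took 1 of the 7 members with one in control 1, 3 of the 25 members with one in control 3, 3 of 15 in knockout 1 and 5 of 26 in knockout 3. In effector cells it took 2 of 12 in control 1, 108 of 312 (Trbv15) in control 3, 7 of 24 in knockout 1 and 4 of 24 in knockout 3. The top Trbv share was thus higher in effector cells than in members in control 1, control 3 (34.6%) and knockout 1. It was lower in knockout 3 (16.7% and 19.2%), with no test. For Trav segments the top share was higher in effector cells in control 3 alone (27.4% against 13.6% in members). It was lower there in control 1, knockout 1 and knockout 3, where a Trav segment was read in 1, 13 and 11 members. The near-identical V genes can share reads.

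Promoters were searched for letters of the factors that mark the members, since LEF1 and TCF1 share a binding motif. The motif CTTTGA (TCF and LEF) was sought on both strands in the 250 bases before the first listed start of each gene in RefSeq, build GRCm38.p6, while the count files use GRCm39. It lay in 62 of the 648 promoters matched among genes higher in members, or 9.57%, against 10.4% of the 5276 matched among all genes tested, 11.0% of 599 higher in effector cells and 3797 of all 27025 promoters. The FOXO motif GTAAACA lay in 2.78%, 2.24%, 1.17% and 3.09% of the same sets, and the KLF motif GGGTGTGG in 3.55%, 3.54%, 4.51% and 3.19%. A match is a description and not a site. Bach2, from the naive list, and Dapl1, from the 10 leading genes, are shown as examples of a TCF and LEF match and a FOXO match, in capitals. Slc28a2b, another leading gene, also holds a TCF and LEF match and is not shown. Both printed promoters are on the + strand, Bach2 at chr4:32417185-32417434 and Dapl1 at chr2:59484403-59484652 of GRCm38.p6.
Bach2: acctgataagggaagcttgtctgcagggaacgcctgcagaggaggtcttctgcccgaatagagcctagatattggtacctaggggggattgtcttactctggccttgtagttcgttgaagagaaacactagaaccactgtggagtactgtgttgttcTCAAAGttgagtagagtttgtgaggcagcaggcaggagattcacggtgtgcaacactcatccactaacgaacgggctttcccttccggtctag
Dapl1: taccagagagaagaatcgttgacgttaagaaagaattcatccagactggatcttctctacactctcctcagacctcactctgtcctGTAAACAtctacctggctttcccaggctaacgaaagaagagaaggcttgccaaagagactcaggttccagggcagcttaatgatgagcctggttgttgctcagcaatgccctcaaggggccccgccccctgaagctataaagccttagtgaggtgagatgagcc

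Against naive-like CD4 T cells, the same rule with Cd4 in place of the CD8 genes, the members were compared in 3 libraries with at least 10 cells of each kind, control 3, knockout 1 and knockout 3, which held 43, 19 and 29 naive-like CD4 cells. The lineage genes were part of the rule, so this contrast is also a description. Of 4505 genes tested, 33 were called higher in naive-like CD8 cells (0.733%) and 57 higher in naive-like CD4 cells (1.27%), 90 in all, which became 51 without control 3 and 171 without knockout 3. None of the 21 tested naive and stem-like genes was called in either direction, with a median of 0.10 against 0.02 over all genes. Tcf7 stood at 364, 453 and 236 CPM in CD8 cells and at 375, 382 and 583 CPM in CD4 cells, which overlap. Without the very large cells, 3 naive genes were called higher in CD8 cells and 1 in CD4 cells.

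The CD8 side carried cytotoxic-lineage transcripts. Of 9 tested CD8 lineage genes, 6 were higher in CD8 cells: Runx3, the transcription factor of that lineage, Ctsw, Nkg7, Klrd1, Itgae and Ly6c2. Ly6c2 stood at 408, 309 and 153 CPM in CD8 cells and had 1 UMI over the 3 CD4 sums. Plac8 stood at 118, 179 and 126 CPM and Gm44174 at 160, 254 and 83.8 CPM, and neither had a UMI in the CD4 cells, which makes them at least 19.2-fold and 21.4-fold higher with CD4 cells set at 3 UMIs over the group. Nkg7 stood at 422, 384 and 276 CPM in CD8 cells and at 35.5, 71.0 and 27.8 CPM in CD4 cells. Itgae, the integrin CD103, stood at 49.3, 85.3 and 53.7 CPM in CD8 cells and at 10.1, 8.88 and 0.0 CPM in CD4 cells, with 3 UMIs over the latter. The remaining leading genes were Ifngas1, the unnamed gene ENSMUSG00000121360, 1700062C10Rik, Klrd1 and Lcn4.

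On the CD4 side, 10 of 13 tested CD4 lineage genes were higher and none lower, with a median of -2.0; without the very large cells 7 of 13 were higher, with a median of -1.43. Cd40lg, the CD40 ligand that helps B cells, stood at 117, 71.0 and 120.3 CPM in CD4 cells and at 1.76, 0.0 and 7.85 CPM in CD8 cells. St8sia6, a sialyltransferase, stood at 81.0, 275 and 139 CPM against 3.52, 8.13 and 2.62 CPM. Others in the lead were Ly6c1, Capg, S100a6, Pdlim4, H1f0, Niban1, Ikzf2 and Tmem64. Ikzf2 and S100a6 came from few CD4 cells: Ikzf2 had 77, 100 and 21 UMIs in 7, 3 and 2 cells. In knockout 1, leaving out 1 very large CD4 cell took Ikzf2 from 888 to 188 CPM and S100a6 from 977 to 70.6 CPM, and H1f0 was then not tested. Regulatory T markers moved with this contrast, with 3 of 4 tested genes (Ikzf2, Ctla4, Tnfrsf18) higher in CD4 cells and summed levels of 780, 1634 and 407 CPM against 190, 169 and 122 CPM in CD8 cells. Without its 1 very large CD4 cell, which left 18 of 19, the sum of knockout 1 was 553 CPM, with B cell markers at 153 in place of 879 CPM and cycling markers at 259 in place of 2335 CPM. Without such cells 3 of the 4 were called as well. Foxp3 itself had 0, 3 and 1 UMIs in the CD4 cells, and the part of regulatory T cells in these differences was not tested. Immediate early genes had 2 of 18 called, Junb and Ppp1r15a, both higher in CD4 cells, and Hspa1a, a heat shock gene, stood at 588, 264 and 484 CPM in CD8 cells and at 1069, 1633 and 1268 CPM in CD4 cells.

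**Figure D2:**
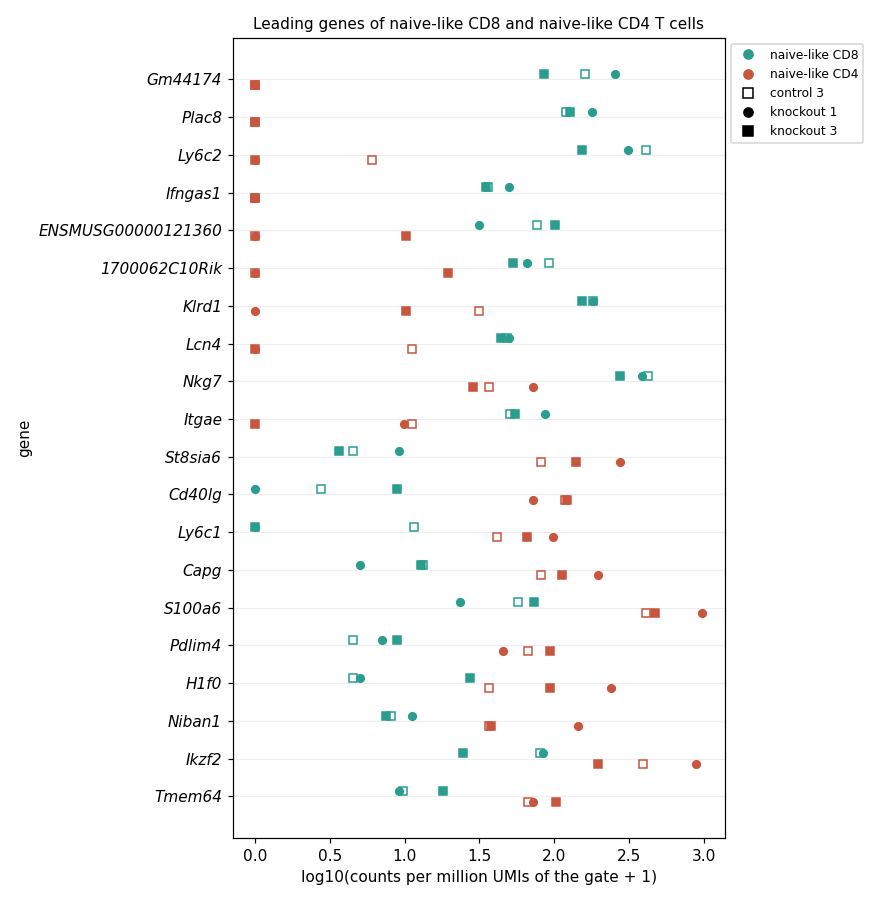
Leading genes of naive-like CD8 and naive-like CD4 T cells in the 3 libraries with at least 10 cells of each. The x axis is log10 of CPM plus 1, each point is 1 library, and points at 0 are genes with no UMI in that library.

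Between the groups, the share of members among gated CD8 T cells (a CD3 gene, Cd8a or Cd8b1, none of Cd4, Cd79a, Lyz2 and C1qa) was compared first. It was 17.9% of 117 cells in control 1 (exact 95% interval 11.5% to 26.1%), 0 of 8 in control 2 (up to 36.9%) and 6.60% of 1607 in control 3 (5.43% to 7.92%). It was 26.7% of 296 in knockout 1 (21.7% to 32.1%) and 31.9% of 370 in knockout 3 (27.2% to 36.9%), and knockout 2 held no CD8 T cell. These intervals cover counting error only. Both knockout libraries lay above all 3 controls. The means were 29.3% ± 3.68 (SD, n = 2) and 8.18% ± 9.08 (SD, n = 3), a difference of 21.1 points, with a two-sided exact permutation p of 0.2, where 0.1 is the smallest this design allows.

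By mouse, the shares in control 3 were 4.62%, 6.21% and 12.4%, and in knockout 3 they were 20.4% and 42.2%. With those mice as units beside the other libraries, the knockout units held 29.8% ± 11.2 (SD, n = 3) and the control units 8.23% ± 7.01 (SD, n = 5). The exact permutation p was then 0.0179, the smallest this design allows, with every knockout unit above every control unit; the mice of 1 library share its preparation. Over wider denominators the groups overlapped. Of gated T cells, members made up 6.21%, 0.0% and 3.59% for the controls, numbered 1 to 3, against 11.5%, 0.0% and 12.1% for the knockouts, a difference of 4.61 points (exact permutation p of 0.4 with n = 3 and 3). Of all kept barcodes they made up 0.779%, 0.0% and 1.05% for the controls, against 2.85%, 0.0% and 2.27% for the knockouts, a difference of 1.10 points (exact permutation p of 0.4 with n = 3 and 3). Without knockout 2, which held 8 gated T cells, these differences were 8.56 and 1.95 points, with exact permutation p of 0.1, the smallest possible. Without control 2, which also held no member, they were 2.98 and 0.792 points (exact permutation p of 0.6 and 0.5). Without any other single library they were 2.50 to 6.09 and 0.527 to 1.32 points. With every cell thinned to 1000 UMIs before the gates, which left out 1229 control and 851 knockout barcodes with fewer, the shares among gated CD8 T cells were 16.7%, 0.0% and 5.68% for the controls, against 22.1% (knockout 1) and 24.2% (knockout 3). The 3 differences then stood at 15.7, 1.43 and 0.327 points.

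The other side of the CD8 gate moved with this share. Effector cells took 42.7%, 37.5% and 62.9% of gated CD8 T cells in the 3 controls, against 27.0% (knockout 1) and 34.1% (knockout 3). The cells with both kinds of gene took 33.3%, 28.6%, 43.2% and 28.4% in control 1, control 3, knockout 1 and knockout 3, and 4 of the 8 in control 2. More naive-like cells and fewer effector cells cannot be told apart from such shares.

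**Figure D3:**
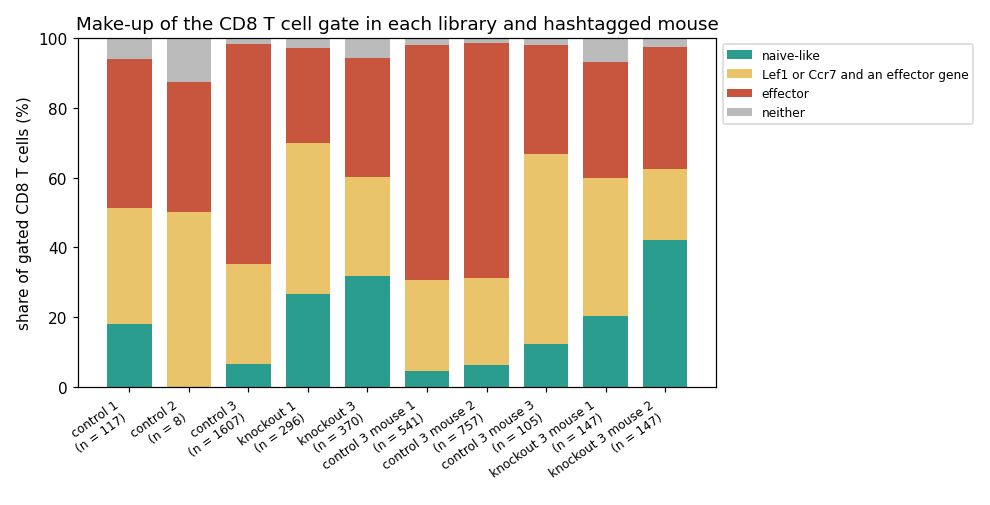
Share of gated CD8 T cells (%) that were naive-like, effector, both or neither, in each library with any such cell and in each hashtagged mouse of control 3 and knockout 3. Each bar sums to 100% with its number of cells below, and the green naive-like part is 17.9%, 0% and 6.60% for the controls, against 26.7% (knockout 1) and 31.9% (knockout 3).

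Gene expression within the members was compared over control 1, control 3, knockout 1 and knockout 3. No gene of 6211 passed an adjusted p of 0.05 (0.0% called, edgeR quasi-likelihood test with Benjamini-Hochberg adjustment). In that fit 97 had an unadjusted p under 0.05, and DESeq2 called 0 with 22. The fit could miss large changes. In counts simulated for it, 1 of 100 genes changed 2-fold was called, and 11 of 100 changed 4-fold. The lack of a call is therefore no sign that a gene was unchanged. Leaving out 1 library changed the count: 290 genes were called without knockout 1 (275 of them higher in knockout), 34 without knockout 3, 4 without control 1 and 1 without control 3. No naive or stem-like gene was called; of 21 tested, 7 had a level higher in knockout, with a median log2 difference of -0.12 against 0.04 over all genes; the list's median was 0.06 without the very large cells. Satb1 differed by -0.12 ± 0.39 (log2 ± SE), Bach2 by -0.20 ± 0.40 and Foxp1 by -0.09 ± 0.35, each within 1 SE of 0.

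Nr4a1, the floxed gene, encodes a nuclear receptor induced by T cell receptor signalling. Its members' level was 59.4 CPM (control 1), 45.7 CPM (control 3), 24.4 CPM (knockout 1) and 39.3 CPM (knockout 3), a log2 difference of -0.59 ± 0.52 with an adjusted p of 1.0 in edgeR, and -0.29 without the very large cells. The groups did not overlap, which so few libraries can easily give, and the share of all genes without overlap was not counted. The 5 UMIs of control 1 came from 1 cell, and 3 UMIs there are 35.7 CPM. Ncr1, the gene that drives Cre, had 2 UMIs in the members of control 3 and none in the other libraries. Nr4a2 stood at 11.9, 49.3, 6.09 and 44.5 CPM, high in both libraries numbered 3. Nr4a3 stood at 0.0, 14.1, 14.2 and 9.16 CPM, too low to test. In the description against effector cells, Nr4a2 was higher in effector cells (179 ± 63.3 against 27.9 ± 22.1 CPM; SD, n = 4), while Nr4a1 stood at 42.2 ± 14.6 CPM in members and 40.4 ± 20.3 CPM in effector cells (SD, n = 4) and was not called.

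The 6 genes with the smallest p, none of which passed, were H2ac4, Cxcr6, Ctla2a, Galk1, Ptprb and Hbb-bs. Cxcr6, a receptor of liver-resident lymphocytes, was at 190 CPM in control 1 and 54.6 CPM in control 3, against 22.4 CPM in knockout 1 and 22.3 CPM in knockout 3 (log2 difference -2.15 ± 0.60). The 16 UMIs of control 1 came from 4 cells. Ctla2a, a protease inhibitor gene, stood at 285 and 127 CPM against 46.7 and 64.1 CPM, and its 24 UMIs in control 1 came from 3 cells. The histone gene H2ac4 came from 1 cell in each control, and without the very large cells its difference was -0.27 in place of -2.14. Galk1, galactokinase, was at 11.9 and 7.04 CPM in the controls, against 24.4 and 91.6 CPM in the knockouts, or 42.9 CPM in knockout 3 without its very large cells. Ptprb, an endothelial phosphatase, stood at 0.0 and 7.04 CPM against 44.7 and 30.1 CPM, with the 22 UMIs of knockout 1 in 2 cells. The globin gene Hbb-bs stood at 1399 CPM in control 3, 35.3 CPM in knockout 3 and 0 in the libraries numbered 1.

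Other lists showed no call either. MYC target and ribosome biogenesis genes had 25 of 26 higher in knockout with a median of 0.68, which became 0.10 without the very large cells. Hspd1, a mitochondrial chaperone of that list, stood at 166.4, 143, 156 and 780 CPM, so knockout 3 alone was high, and it was at 175 CPM without the very large cells. Cytotoxic genes had a median of -0.46 (3 of 14 higher in knockout), which became -0.16, and quiescence genes -0.29, which became -0.18. Interferon genes had a median of -0.34 (4 of 18 higher), which became -0.21, with Xaf1 at 35.7 and 45.7 CPM (controls) against 12.2 and 23.6 CPM (knockouts). Ifngr2, the second chain of the interferon gamma receptor, stood at 11.9 and 29.9 CPM against 71.1 and 56.3 CPM, and Igfbp4 at 95.1 and 100.3 CPM against 158 CPM in both.

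Markers of other cells were read in the same members. Hepatocyte markers summed to 3459, 1508, 116 and 9010 CPM in the members of control 1, control 3, knockout 1 and knockout 3, and to 1930 CPM in knockout 3 without its very large cells. Of the 18 genes, 1 was at 0 in control 1 and 4 in knockout 1. Endothelial markers summed to 202 and 185 CPM (control 1 and control 3) against 293 and 262 CPM (knockout 1 and knockout 3; 360 CPM in knockout 3 without the very large cells), led by Pecam1, which T cells also express. B cell markers summed to 178 and 292 CPM (controls) against 169 and 141 CPM (knockouts), the last of which was 177 CPM without the very large cells, level with control 1. NK markers summed to 47.6 and 68.6 CPM against 16.2 and 36.7 CPM, the last of which was 52.6 CPM without the very large cells. Foxp3 had 1 UMI over all members. The part of these cells in the differences was not tested.

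**Figure D4:**
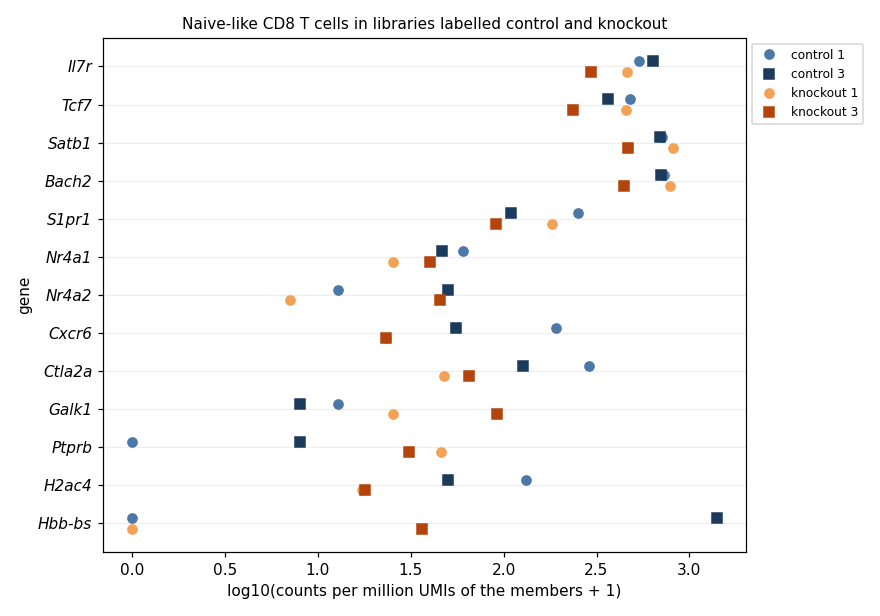
Levels of naive genes, Nr4a1, Nr4a2 and the 6 genes with the smallest p in naive-like CD8 T cells. The x axis is log10 of CPM plus 1 and each point is 1 of 4 libraries, blue for control and orange for knockout; naive genes such as Satb1 overlap between groups, while Cxcr6 reads 190 and 54.6 CPM (controls) against 22.4 and 22.3 CPM (knockouts).

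The knockout effect was also compared between members and effector cells of the same 4 libraries. Of 7897 genes, 3 had a more positive effect in members (0.038%) and 5 a more negative one (0.0633%) at an adjusted p under 0.05 in edgeR, and DESeq2 called none (47 at an unadjusted p under 0.05). Leaving out 1 library left 1 library in that group, and more genes were then called. Without control 3 these were other genes than the 8 named below, and without knockout 3 they were mostly other genes. Without the very large cells none was more positive and 7 more negative. The 8 were the globins Hba-a1, Hba-a2, Hbb-bs and Hbb-bt, the gut and liver genes Fabp6, Tff3 and Apoa4, and Tnfsf8. Tnfsf8, the ligand of CD30, had 47.6 CPM (control 1), 89.7 CPM (control 3), 122 CPM (knockout 1) and 34.0 CPM (knockout 3) in members. In effector cells it had 4.25 and 4.54 CPM (controls) against 100.1 and 30.3 CPM (knockouts). The 4.25 CPM of control 1 lies under the level of 3 UMIs, which are 12.8 CPM in its effector cells. The groups overlapped in members and not in effector cells. So few libraries can easily give such a lack of overlap, and its share over all genes was not counted. The difference of effects for Tnfsf8 was -4.03 ± 0.54 (log2 ± SE, adjusted p = 0.000901 in edgeR), and -4.04 without the very large cells. DESeq2 did not call it.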

How the data were processed

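The authors deposited raw UMI counts per gene and barcode, made with Cell Ranger 7.0.1 (libraries 1 and 2) or 9.0.1 (libraries 3) per the file headers, and 9.0.1 with GRCm39 per the submitters' processing notes. Hashtag counts stayed out of totals. Barcodes entered the gate above the limits given in the report (500 UMIs, 300 genes, 20% mitochondrial UMIs). Doublets were not removed from the members; leaving out hashtag multiplets, 6 of them in control 3, was an alternative.

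UMI counts were summed per library and gate (at least 10 cells; 84125 to 763904 UMIs over the members) and fitted with the edgeR quasi-likelihood test (TMM, filterByExpr, Benjamini-Hochberg, threshold 0.05, two-sided), with library as a block between gates and in the test of the difference of effects. The 14 gate genes were not tested. The SE is the absolute log2 fold change over the square root of F. Shares were compared by exact permutation over libraries, with Clopper-Pearson intervals. A gene with no UMI is set at 3 UMIs for a bound. Scripts were tested on simulated data.

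Named genes were the gate genes, Nr4a1, Nr4a2, Nr4a3 and Ncr1, the 6 smallest p (knockout against control), the 10 largest differences per direction (between gates, same direction in every library, at least 20 UMIs) and, from lists, the 2 smallest p of a list; others were chosen after their values were seen. The members, lists and rules were chosen with earlier results of these data known.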

Additional observations from a re-analysis of the deposited data

Results flagged for a closer look

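The knockout effect differed between naive-like and effector CD8 T cells for 8 genes, by a test of the difference itself (log2 difference, edgeR). It was more negative in naive-like cells for Hba-a1 (-7.40), Hbb-bs (-6.85), Hbb-bt (-8.08), Hba-a2 (-6.68) and Tnfsf8 (-4.03). It was more positive for Fabp6 (9.08), Tff3 (10.56) and Apoa4 (5.01). The globins had no UMI in the members of both libraries numbered 1. Hbb-bs stood at 1399 CPM in members of control 3 and 35.3 CPM in those of knockout 3, against 1215 and 3319 CPM in effector cells. Fabp6 stood at 630 CPM in the members of knockout 3, at 31.2 CPM without the very large cells, and at 775 CPM in the effector cells of control 3, where it was 20.5 CPM without them. Its difference was 0.15 without those cells, where Tff3 and Apoa4 did not pass the filter on low counts, so none of the 3 positive calls was left. In the members of knockout 3, Tff3 was at 199 CPM with and 7.79 CPM without those cells, and Apoa4 at 174 and 52.6 CPM. How far RNA from other cells sets these 8 values was not tested.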

How the results depend on the processing

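The share of members among gated CD8 T cells was higher in knockout under every alternative run, by 15.7 to 26.0 points, and 17.0 to 26.0 points without single libraries. It passed the threshold with mice as units alone (21.5 points), where mice of 1 library share its preparation and are not independent of each other. Whether replicate numbers pair libraries could not be tested. With 2 libraries per group the deviations from the group mean are mirror images, so both pairs give the same r (-0.0289) by construction. With the replicate block the shares differed by 17.0, 4.62 and 1.10 points, the fit within members called 0 genes (167 at an unadjusted p under 0.05), and no call changed. Shares of gated T cells and of all barcodes also kept their direction.

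Within the members, 0 genes became 39 with no filter on low counts (33 higher) and 1 to 290 when single libraries were left out, the 290 (275 higher) without knockout 1, where knockout 3 alone stands for its group and is assumed to vary like the controls. Between naive-like and effector cells, 1598 calls became 727 without the library block, and 689 to 1528 without single libraries (689 without knockout 1, 986 without control 3). Between CD8 and CD4, 90 calls became 49 with DESeq2, 192 with no filter, 45 with at least 2 UMIs over Lef1 and Ccr7, 53 without the block, and 51 to 171 without single libraries (51 without control 3, 171 without knockout 3). Upper-quartile scaling gave 58 higher and 64 lower there, against 33 and 57, and at least 20 cells per library gave 46 and 35. The 8 differences of effects became 0 with DESeq2, 35 with no filter, 4 with at least 2 UMIs over Lef1 and Ccr7, and 24 to 114 without single libraries. The cause was not tested. At least 5 cells (and 20, in the other fits) kept the same libraries and was not run.

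Of the 1598 calls between naive-like and effector cells, 3 turned direction without the very large cells. Of the 90 between CD8 and CD4, 1 turned with at least 2 UMIs over Lef1 and Ccr7, and 1 without control 3. Among the named genes, the turned directions, none of them called, were as follows. In knockout against control, Hbb-bs (6.13), Nr4a2 (1.36) and Dusp2 (1.83) turned without control 3, Nr4a2 (0.12) without knockout 1, Ikzf2 (0.13) with at least 2 UMIs over Lef1 and Ccr7, and Slamf6 without the very large cells (0.024) and without knockout 3 (0.017). Without single libraries Hbb-bs ran from -11.24 to 6.13, Nr4a2 from -2.78 to 1.36, Slamf6 from -0.418 to 0.017 and Dusp2 from -1.40 to 1.83. Between naive-like and effector cells, Nr4a1 turned to -0.034 without the very large cells and -0.12 without knockout 3. Between CD8 and CD4, Nr4a2 turned to 0.53 with at least 20 cells per library and without knockout 1, and to 0.65 with at least 2 UMIs over Lef1 and Ccr7, with -1.18 without knockout 3. Among differences of effects, Nr4a1 turned to 0.17 without knockout 1, and Nr4a2 to 1.74 without control 3 and 0.57 without knockout 1 (-1.85 and -3.39 without knockout 3). The very large cells were left out as an alternative chosen after seeing the data. Control 1, with 84125 member UMIs, limits what can be seen: 3 UMIs there are 35.7 CPM.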
